A study of Drosophila melanogaster with 20 samples.

Results

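The *Drosophila* spalt genes *salm* (*spalt major*) and *salr* (*spalt-related*) were followed in eye-antennal imaginal discs in which the proneural TF Atonal (Ato) was gained or lost or the zinc-finger TF Senseless (Sens) was gained. The probe sets taken were those whose annotation names only *salm* or only *salr*, which gave 2 probe sets, 1 for each gene, among 18769 tested. No probe set names either gene together with another gene, so each gene rests on 1 probe set. Both genes encode zinc-finger TFs of the Spalt family, which lie next to each other in the genome and act together in many tissues. In the developing retina they are expressed behind the morphogenetic furrow, the front of differentiation that crosses the eye disc, where they are needed for the R3 and R4 photoreceptors and later for the terminal fate of the inner photoreceptors R7 and R8, and cone cells also express them. In the antenna they take part in the formation of Johnston's organ, the hearing organ, whose founder cells also need Ato.

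RNA of eye-antennal discs from larvae of the last instar was hybridized to 20 Affymetrix arrays, and each value is a log2 level made with RMA. All larvae were raised at 18 °C and shifted to 28 °C for 24 h. The control group held 2 arrays each of the wild type cantonS, the transgene line UASato and the driver lines atoGal4 and Gal4/7, 8 in all. Ato GOF held 3 arrays of Gal4/7 x UASato and 3 of atoGal4 x UASato, Sens GOF held 3 of atoGal4 x UASsens, and Ato LOF held 3 of *ato*-/-, drawn from an *ato1*/hshid stock.

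Several features limit these groups as models. Larvae of the Ato LOF stock received heat shocks on 3 days in a row from the first instar, and no control line is described as heat-shocked, so the effects of that treatment and of the mutation cannot be told apart. No UASsens line is among the controls. In the GOF lines the protein was made wherever the driver was active: atoGal4 is the enhancer trap NP6558, and the pattern of Gal4/7 is not given in the sources used here. In dissected discs of mixed cells, fewer cells of a type and less RNA per cell cannot be told apart.

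The targeted transcripts lay where the labels of the GOF lines put them. The *ato* level was 11.30 to 12.61 on the 6 Ato GOF arrays against 9.27 to 10.01 in the controls, and the *sens* level was 11.68 to 12.18 on the Sens GOF arrays against 7.98 to 8.70. In Ato LOF the *ato* transcript lay at 9.99 to 10.35, which says nothing of the function of its protein, and *sens*, which acts after Ato in R8, spread from 4.50 to 8.11. Arrays 1 and 2 of Sens GOF stood far closer to each other than any other replicates did. The SD of their difference over all probe sets was 0.149, against 0.325 to 0.759 for the other pairs of arrays of 1 line. The Sens GOF results are therefore given also with their mean counted as 1 array, which lowered the share of probe sets called lower against controls from 2.39% to 0.4%.

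*salm* was lowest in the mutant discs and near the control level in every other line. In the controls it measured 10.01 and 10.15 in cantonS, 10.31 and 10.42 in UASato, 10.18 and 10.38 in atoGal4, and 10.11 and 9.99 in Gal4/7. The Ato GOF arrays gave 10.38, 10.45 and 10.63 with atoGal4 x UASato, and 10.11, 10.27 and 10.34 with Gal4/7 x UASato. The Sens GOF arrays gave 10.02, 10.03 and 9.70, while the 3 Ato LOF arrays gave 8.75, 8.86 and 8.84. By line mean the order ran from atoGal4 x UASato (10.48) through UASato (10.36), atoGal4 (10.28), Gal4/7 x UASato (10.24), cantonS (10.08), Gal4/7 (10.05) and atoGal4 x UASsens (9.92) to *ato*-/- (8.82). Of the 7 steps in this order, the last alone separated lines that did not overlap, by a gap of 1.10 between the means.

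*salr* had 2 low lines rather than 1. Its control arrays measured 8.34 and 8.74 in cantonS, 8.37 and 8.74 in UASato, 8.46 and 8.61 in atoGal4, and 8.94 and 8.58 in Gal4/7. The Ato GOF arrays gave 8.51, 8.88 and 8.88 with atoGal4 x UASato, and 8.54, 8.89 and 8.97 with Gal4/7 x UASato. The Sens GOF arrays gave 7.76, 7.73 and 8.23, and the Ato LOF arrays gave 7.25, 7.07 and 7.51. The upper 6 lines, Gal4/7 x UASato (8.80), Gal4/7 (8.76), atoGal4 x UASato (8.76), UASato (8.56), cantonS (8.54) and atoGal4 (8.54), overlapped at every step. Below them atoGal4 x UASsens (7.90) and then *ato*-/- (7.27) each lay 0.63 under the line before, with no overlap.

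**Figure D1:**
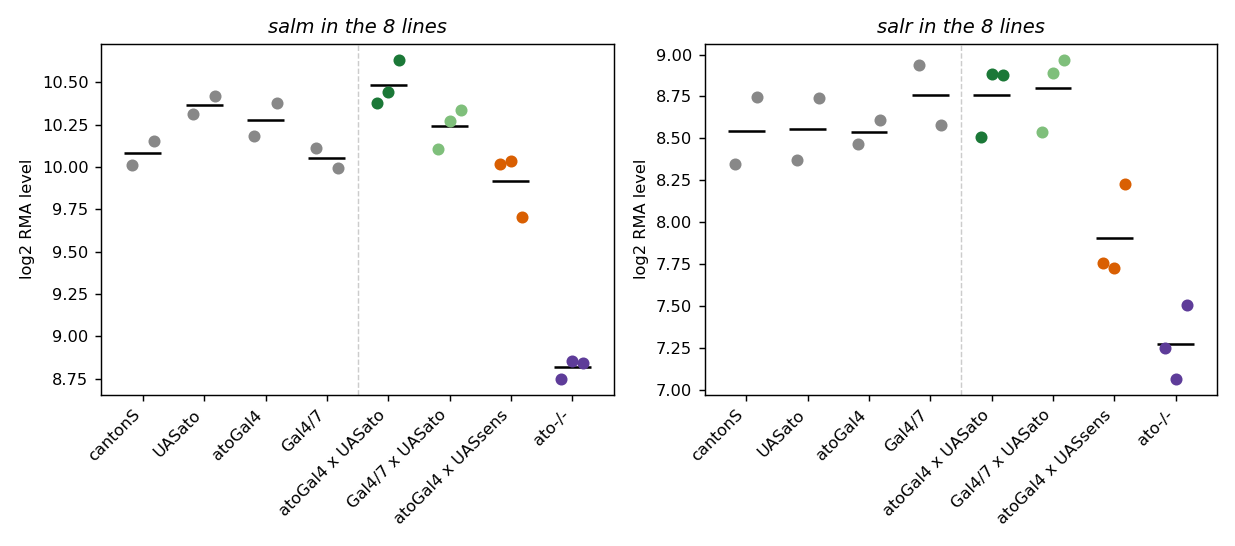
Log2 RMA level of *salm* (left) and *salr* (right) on each of the 20 arrays, grouped by line, with a black bar at the line mean and a dashed line between the controls and the perturbed lines. The axes do not start at 0, and each gene has its own range. The *ato*-/- arrays (8.75 to 8.86 for *salm*, 7.07 to 7.51 for *salr*) lie below all other arrays, and for *salr* the atoGal4 x UASsens arrays (7.73 to 8.23) also lie below the controls.

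To ask what loss of Ato does, the 3 Ato LOF arrays were compared with the 8 controls. The lowest, median and highest control were 9.99, 10.17 and 10.42 for *salm* and 8.34, 8.59 and 8.94 for *salr*, and for both genes every mutant array lay below every control. *salm* fell by 1.38 on the log2 scale (SE 0.10, 95% interval -1.59 to -1.16), a 2.60-fold decrease, with adjusted p = 1.16e-05 from limma. *salr* fell by 1.33 (SE 0.13, 95% interval -1.62 to -1.03), a 2.51-fold decrease, with adjusted p = 0.000164 from limma. Both members were thus called lower, where 8.6% of the 18769 probe sets were. A two-sided exact permutation test over the arrays gave p = 0.00606 for each gene, the smallest that 3 against 8 arrays allow. By size the decreases ranked 202 and 220 among the 10018 probe sets with a lower mean in Ato LOF. Both genes thus lay among the larger decreases, and neither passed when a change of over 3-fold was also required. The study set its 3-fold limit on gcRMA values, whereas the values used here come from RMA. The study drew *salm* into its Ato LOF gene set from these same mutant samples, so its decrease is not independent evidence for that set. The study also listed *salm* among its predicted direct Ato targets. The intronic fragment of *salm* that it tested did not score as positive in its GFP reporter assay.

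The spread of the members over the 3 mutant arrays was no larger than in the controls for *salm* and near it for *salr*. The SD of *salm* over them was 0.06, and that of *salr* was 0.22, against 0.16 and 0.20 over the 8 controls. The control SDs include differences between the 4 lines. Within single control lines, of 2 arrays each, the SD was 0.08 to 0.14 for *salm* and 0.10 to 0.28 for *salr*. On the same arrays, in the order 1, 2 and 3, *sens* measured 6.86, 8.11 and 4.50, so array 2 was within the control range for *sens* while its *salm* level of 8.86 was far below it. *gl*, which encodes the Glass TF of photoreceptor precursors, measured 8.55, 7.65 and 7.34, against 10.97 to 11.42 in the controls. Other genes were also even over these arrays, among them *ro* at 4.56 to 4.72, *eya* at 9.89 to 10.10 and *danr* at 9.97 to 10.03. The *ro* values lay under every array median.

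To ask what gain of Sens does, the 3 atoGal4 x UASsens arrays were compared with the same 8 controls, so this comparison and the preceding one share their control arrays. All 3 *salr* values lay below the lowest control, whereas the *salm* values overlapped the controls, with arrays 1 and 2 inside their range and array 3 below it. *salr* fell by 0.70 on the log2 scale (SE 0.14, 95% interval -1.01 to -0.38), a 1.62-fold decrease, with adjusted p = 0.0245 from limma, where 2.39% of probe sets were called lower. The two-sided exact permutation test gave p = 0.00606. For *salm* the log2 difference was -0.28 (SE 0.11, 95% interval -0.52 to -0.03) with adjusted p = 0.201 from limma, which did not pass, and the exact permutation p, unadjusted, was 0.0485. Without array 3 the *salm* difference was -0.17 (adjusted p = 0.493 from limma). With arrays 1 and 2 counted as 1 array, the *salr* difference was -0.61 (adjusted p = 0.144) and the *salm* difference was -0.33 (adjusted p = 0.318), both from limma, so the call of *salr* was lost. It was lost as well without array 1 (-0.62, adjusted p = 0.138) or without array 2 (-0.61, adjusted p = 0.141), and with only the 2 atoGal4 arrays as controls (-0.63, adjusted p = 0.199). Over all alternatives tried for this value, the adjusted p ran from 0.000262 to 0.199. The lowest came from the fit with array weights, which called 4709 probe sets in either direction against 689 in the main fit.

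Within Sens GOF the members did not follow each other. Array 3, with the lowest *salm* level of the group (9.70), had the highest *salr* level (8.23) and the lowest *sens* level (11.68). Arrays 1 and 2 held *sens* at 12.18 and 12.15 and *salr* at 7.76 and 7.73. With 3 arrays, of which a pair may not be independent, no relation between the level of *sens* and that of the spalt genes was tested.

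To ask what gain of Ato does, the 6 Ato GOF arrays were compared with the 8 controls. The lowest, median and highest GOF values were 10.11, 10.36 and 10.63 for *salm* and 8.51, 8.88 and 8.97 for *salr*, and both groups overlapped the controls. The log2 difference was 0.17 for *salm* (SE 0.09, 95% interval -0.02 to 0.36, adjusted p = 0.483 from limma) and 0.18 for *salr* (SE 0.10, 95% interval -0.05 to 0.40, adjusted p = 0.541 from limma). Neither passed, where 0.783% of probe sets were called higher. The intervals leave room for a rise of 0.36 for *salm* and of 0.40 for *salr*. A two-sided exact permutation test gave p = 0.0889 for *salm* and p = 0.122 for *salr*, unadjusted.

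Taken by driver, the *salm* arrays of atoGal4 x UASato ran highest of all lines, and array 1 at 10.38 was still within the control range. Their log2 difference from the 8 controls was 0.29 for *salm* (SE 0.10, 95% interval 0.06 to 0.52) with adjusted p = 0.519 from limma, and the unadjusted exact permutation p was 0.0242. Against the atoGal4 and UASato arrays alone the *salm* difference was 0.16 (adjusted p = 0.790 from limma). For *salr* it was 0.16 (SE 0.13, adjusted p = 0.885 from limma). With this driver 0.0533% of probe sets were called higher. With Gal4/7 the difference was 0.04 for *salm* (SE 0.10, adjusted p = 0.928 from limma) and 0.20 for *salr* (SE 0.13, adjusted p = 0.676 from limma), where 1.63% of probe sets were called higher. The change under Gal4/7 minus the change under atoGal4, each against its own driver line, was -0.02 for *salm* (95% interval -0.39 to 0.35, adjusted p = 0.982) and -0.18 for *salr* (95% interval -0.75 to 0.40, adjusted p = 0.882) by limma. A difference between the drivers was called for 0.0746% of probe sets.

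The line with more *ato* transcript was not the line with more *salm*. Gal4/7 x UASato, with *ato* at 12.22 to 12.61, had *salm* at 10.11 to 10.34, and atoGal4 x UASato, with *ato* at 11.30 to 11.62, had *salm* at 10.38 to 10.63. These ranges did not overlap for *ato* or for *salm*, and they ran in opposite order. The driver lines alone stood in the same order for *salm*, atoGal4 at a mean of 10.28 and Gal4/7 at 10.05. The *salr* ranges of both lines overlapped.

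Perturbed lines were also compared with each other, which needs no control arrays. Under the same atoGal4 driver, all UASsens arrays lay below all UASato arrays for both members. The log2 difference was -0.57 for *salm* (SE 0.12, 95% interval -0.86 to -0.27, adjusted p = 0.0502 from limma) and -0.85 for *salr* (SE 0.17, 95% interval -1.26 to -0.45, adjusted p = 0.0410 from limma), where 3.57% of probe sets were called lower. The value for *salr* passed and that for *salm* did not, but both lay near the threshold. With Sens GOF arrays 1 and 2 counted as 1, the differences were -0.62 for *salm* (adjusted p = 0.124) and -0.77 for *salr* (adjusted p = 0.149), both from limma, and neither passed. The *salr* call was also lost without array 1, 2 or 3 of atoGal4 x UASato (adjusted p = 0.0625, 0.115 and 0.116) and without Sens GOF array 1 or 2 (adjusted p = 0.159 and 0.146), and over all its alternatives the adjusted p ran from 0.00291 to 0.159.

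Set against Sens GOF, the mutant discs were lower still. The Ato LOF arrays lay below the Sens GOF arrays for both members, by 1.10 for the mean of *salm* and by 0.63 for that of *salr*. For *salm* the log2 difference of -1.10 (SE 0.11) had adjusted p = 0.00545 from limma, and for *salr* the difference of -0.63 (SE 0.18) had adjusted p = 0.112 and did not pass, where 2.26% of probe sets were called lower. With Sens GOF arrays 1 and 2 as 1 array, *salm* kept its call (-1.05, adjusted p = 0.0369 from limma, at most 0.0393 under any alternative) and *salr* gave -0.71 (adjusted p = 0.212). The exact permutation test cannot go under p = 0.1 with 3 against 3 arrays, and it gave 0.1 for each gene in both direct comparisons.

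**Figure D2:**
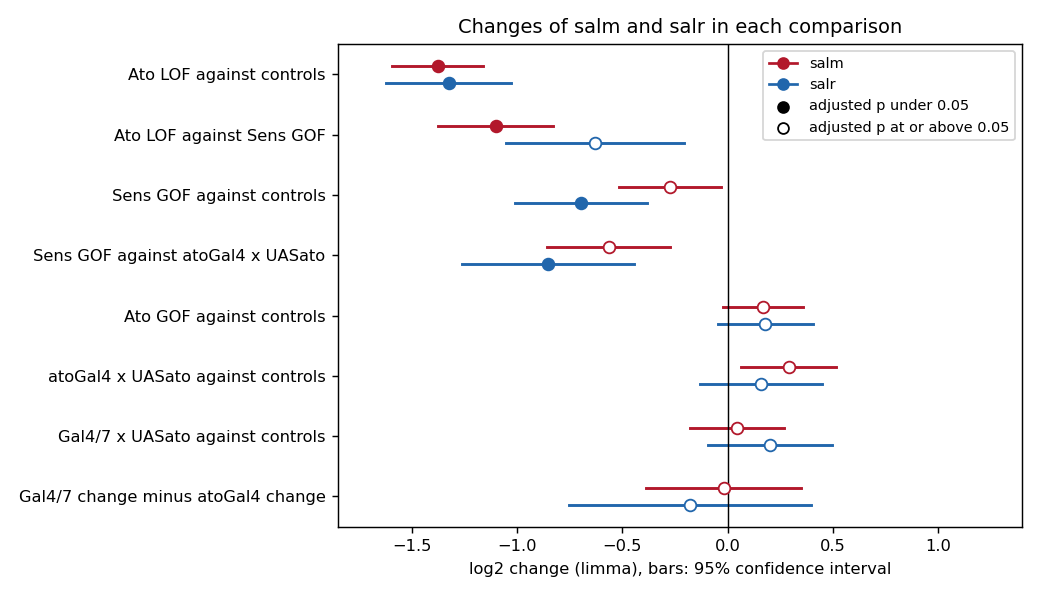
Log2 change of *salm* (red) and *salr* (blue) in 8 comparisons, with bars for the 95% confidence interval from limma and filled points for an adjusted p under 0.05. The decreases in Ato LOF (-1.38 and -1.33) are alike in both genes, the decrease of *salr* in Sens GOF (-0.70) passed while that of *salm* (-0.28) did not, and the intervals for the driver difference span 0.

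Whether the 2 genes changed by different amounts was tested on the per-array difference of their log2 values. In Ato LOF the change of *salm* minus that of *salr* was -0.05 (SE 0.16), with a two-sided exact permutation p = 0.770. In Sens GOF against controls it was 0.42 (SE 0.28), with exact permutation p = 0.0545 and p = 0.382 adjusted over the 7 comparisons so tested. In Ato LOF against Sens GOF it was -0.47 (SE 0.30), with exact permutation p = 0.3, where 0.1 is the smallest possible. With Sens GOF arrays 1 and 2 counted as 1 array these differences were 0.29 (exact permutation p = 0.244) and -0.34 (exact permutation p = 0.5). The call of *salr* and not of *salm* in Sens GOF therefore does not show that the genes differed in their response, and over the 7 comparisons the lowest adjusted p was 0.382.

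Over the 20 arrays the log2 levels of *salm* and *salr* correlated at Pearson r = 0.866, given as a description, since arrays of a line share its genotype and the 3 mutant arrays lie apart. Without the mutant arrays r was 0.571 over 17 arrays, and over the 8 controls it was 0.102. With each line's mean removed from its arrays, r was 0.2 over the 20 arrays. The 2 genes thus varied together between lines far more than within them, but little among the 8 control arrays.

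**Figure D3:**
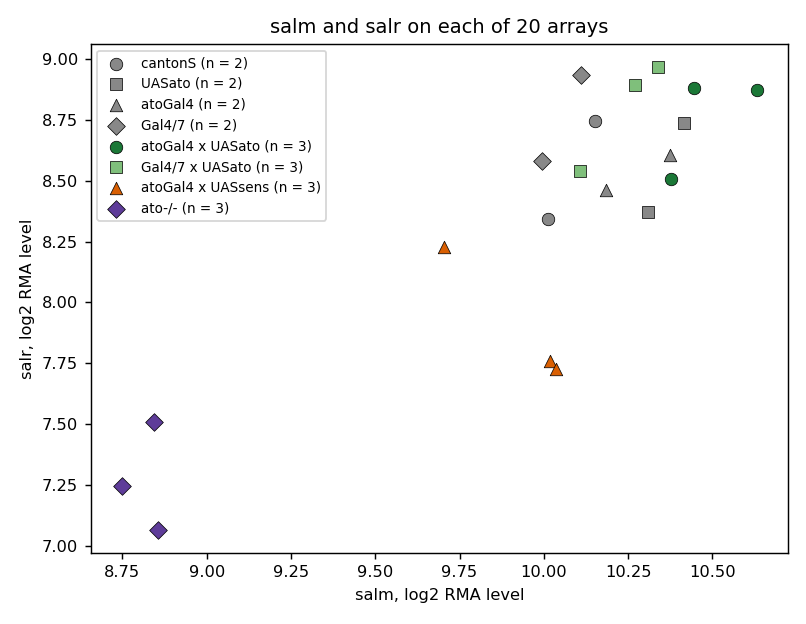
Log2 RMA level of *salr* against that of *salm* on each of 20 arrays, with a colour and marker for each line. The 3 *ato*-/- arrays stand at the lower left, the 3 atoGal4 x UASsens arrays have *salr* below and *salm* near the range of the controls, and the other 14 arrays form 1 cloud.

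No difference among the control lines was called for either member, though each line had only 2 arrays. The line means spanned 0.31 for *salm*, from 10.05 in Gal4/7 to 10.36 in UASato, and 0.22 for *salr*, from 8.54 in atoGal4 to 8.76 in Gal4/7. The F-test of limma over the 4 lines gave adjusted p = 0.593 for *salm* and adjusted p = 0.898 for *salr*, where 0.842% of probe sets were called. The change of each gene in Ato LOF exceeded its span over the control lines, and so did that of *salr* in Sens GOF (-0.70). The change of *salm* in Sens GOF (-0.28) was smaller than its span, as were the changes of both genes in Ato GOF (0.17 for *salm*, 0.18 for *salr*).

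The decrease of the spalt genes in Ato LOF stood beside decreases of most measured photoreceptor genes. Over 8 lists of retinal, antennal and signaling genes, 25 of 49 measured genes (51.0%) were lower and none was higher, where 8.6% of all probe sets were lower. Of 4 measured genes of the R8 photoreceptor 3 were lower, and *boss*, the R8 ligand of the Sevenless receptor, fell by 1.73 (SE 0.13, adjusted p = 1.82e-05 from limma). Of 9 genes of outer and R7 photoreceptor fate 6 were lower, with a median change of -1.37. Among them *ro*, which encodes the Rough homeobox TF of R2 and R5, fell by 2.79 (adjusted p = 3.11e-06), and *sev*, the receptor tyrosine kinase that specifies R7, fell by 2.49 (adjusted p = 1.16e-05). The median over all probe sets was -0.02. *svp*, a nuclear receptor needed in R3, R4, R1 and R6, did not pass (-0.14, adjusted p = 0.702).

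R3 and R4, the photoreceptors in which Spalt acts early, were represented by a list of genes of their fate and of planar polarity. Of 7 measured genes 6 were lower in Ato LOF and none was higher, against 8.6% of all probe sets lower, with a median change of -0.41. *E(spl)mdelta-HLH*, a Notch target expressed in R4, fell by 2.17 (adjusted p = 3.39e-06 from limma), *Delta*, the Notch ligand, fell by 1.17 (adjusted p = 5.59e-05) and *stan*, the cadherin Flamingo, fell by 1.11 (adjusted p = 0.00330). *Vang*, a membrane protein of planar polarity, fell by less, 0.41 (adjusted p = 0.0134). Of 3 cone cell genes, *sv*, the Pax2 homologue, was lower (-0.71, adjusted p = 0.0222), while the TF genes *ct* (-0.05, adjusted p = 0.885) and *dve* (-0.31, adjusted p = 0.282) did not pass. The mean log2 level of *sv* over the arrays was 3.99, under every array median.

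Transcripts of the Dpp pathway, which activates the spalt genes in the wing disc, showed smaller differences. The activity of the pathway itself was not measured. Of 9 measured genes of the pathway 3 were lower in Ato LOF, against 8.6% of all probe sets, and these were the signal transducers *Mad* (-0.30, adjusted p = 0.0283 from limma) and *Med* (-0.29, adjusted p = 0.0270) and the zinc-finger cofactor *shn* (-0.56, adjusted p = 0.0235). The ligand *dpp* itself did not pass (0.10, adjusted p = 0.659). Neither did *bi*, a T-box TF gene that Dpp activates in the wing (-0.06, adjusted p = 0.773), or *Dad* (-0.09, adjusted p = 0.747). Of the 4 genes that Spalt controls in the wing disc, *kni*, *knrl*, *ara* and *caup*, none was called in Ato LOF, and their changes ran from -0.42 to 0.10. The median change was -0.23 for the Dpp list and -0.21 for the wing targets.

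The antennal part of the disc was read from 6 measured patterning genes, of which 2 were lower in Ato LOF, against 8.6% of all probe sets. These were *dan* and *danr*, related TF genes of antennal identity that are also expressed in the eye disc, with log2 changes of -0.99 each (adjusted p = 0.00673 and 0.000739 from limma). The selector gene *Dll* (-0.20, adjusted p = 0.346) and *ss*, an antennal bHLH-PAS TF gene (0.04, adjusted p = 0.907), did not pass. Of 7 genes of retinal neurons and retinal determination 4 were lower, namely *gl* (-3.33), *elav* (-1.64), *eya* (-1.42) and *so* (-1.02), while the determination genes *ey*, *toy* and *dac* did not pass. No value was read here for the rhodopsin genes, of which some are later Spalt targets.

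In Sens GOF 7 of the 49 list genes (14.3%) were called lower, where 2.39% of all probe sets were. The *sens* transcript, transgene included, rose by 3.59 (adjusted p = 2.51e-06 from limma). The genes called lower were *Delta* (-0.77, adjusted p = 0.00444) in the R3/R4 and polarity list, *B-H2*, a homeobox TF gene of R1 and R6 (-0.52, adjusted p = 0.0231), *shn* (-0.62, adjusted p = 0.0380), *Dll* (-0.64, adjusted p = 0.0193), and the retinal genes *so* (-0.57, adjusted p = 0.0189), *elav* (-0.48, adjusted p = 0.0263) and *gl* (-0.45, adjusted p = 0.0334). With arrays 1 and 2 counted as 1 array, *Delta* alone of these 7 was called (-0.73, adjusted p = 0.0322 from limma), and the others kept changes of -0.67 to -0.47. None of 3 cone cell genes and none of the 4 wing targets was called. In Ato GOF, where neither spalt gene was called, 3 of 4 R8 genes were higher (*ato*, transgene included, *sens* and *neur*), *phyl* and *E(spl)mdelta-HLH* were higher, and *B-H1*, *B-H2*, *tkv* and *so* were lower. Of the 49 list genes 5 (10.2%) were thus higher and 4 (8.16%) lower, where 0.783% and 0.218% of all probe sets were.

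**Figure D4:**
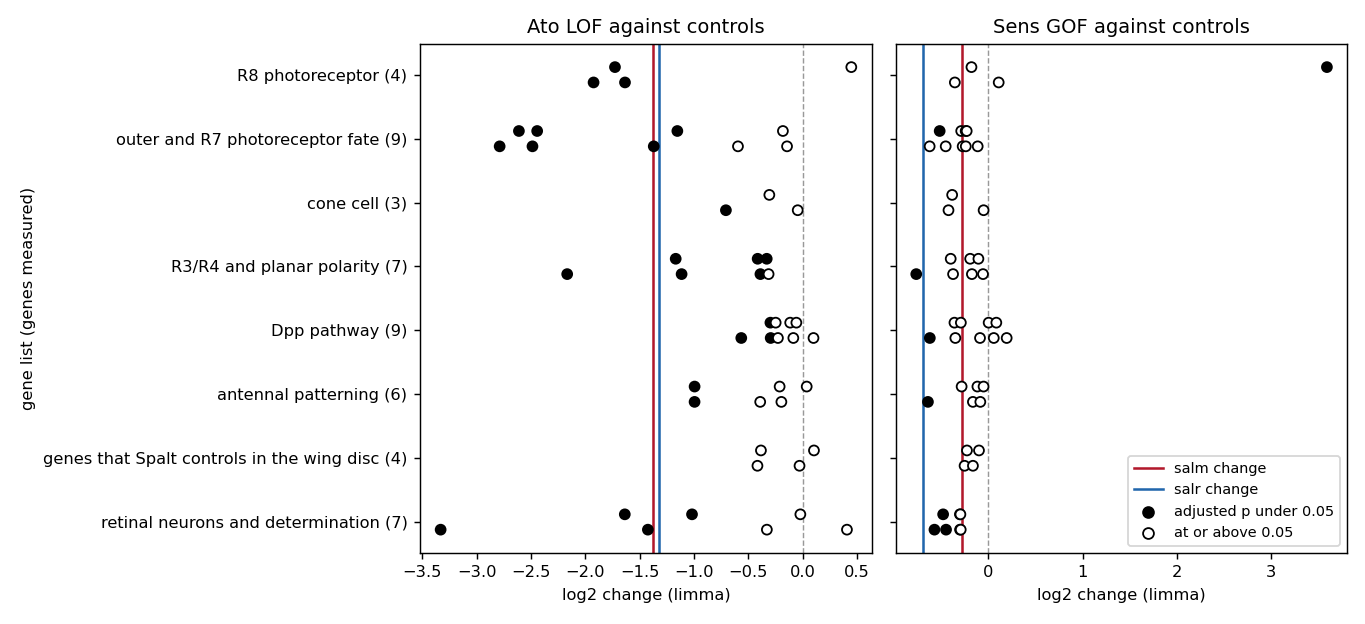
Log2 change of each measured gene of 8 lists (rows, with the number of genes measured) in Ato LOF (left) and Sens GOF (right) against controls. Filled points passed an adjusted p under 0.05 from limma, and the red and blue lines mark *salm* (-1.38 left, -0.28 right) and *salr* (-1.33 left, -0.70 right). In Ato LOF the photoreceptor lists spread to both sides of the members, and the wing targets lie between -0.42 and 0.10; the point far to the right in Sens GOF is *sens*.

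The content of other tissues differed between arrays. The mean log2 level of 3 fat body markers ran from 12.23 to 14.15 in the controls, 13.57 to 13.68 in Sens GOF and 13.98 to 14.37 in Ato LOF. That of 5 salivary gland markers ran from 5.96 to 14.18, 12.68 to 14.34 and 10.55 to 13.75 in the same groups. Of 4 glial markers it ran from 9.70 to 10.34 in the controls and from 9.57 to 9.90 in Ato LOF, and of 4 neuroblast and brain markers from 7.28 to 8.35 and from 6.55 to 7.66. The 5 eye disc markers (10.38 to 11.01 in the controls, 10.15 to 10.36 in Ato LOF) and the 4 antennal disc markers (9.37 to 10.08 and 9.22 to 9.34) were lower in the mutant discs with no overlap, and these lists hold *eya*, *so*, *dan* and *danr*. In Sens GOF both disc lists overlapped the controls (10.21 to 10.45 and 9.41 to 9.55). The muscle, hemocyte and tracheal lists overlapped the controls in both groups. Overlap of a list mean does not mean that no marker changed. By gene, 3 of 4 glial, 1 of 4 hemocyte and 1 of 4 neuroblast and brain markers were called lower in Ato LOF, where 8.6% of probe sets were. No fat body, salivary gland, muscle or tracheal marker was called there. The part of these differences in the decreases of *salm* and *salr* was not tested.

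The decrease was not seen in the measured neighbours of the locus. In the RefSeq annotation of Release 6 *salm* and *salr* lie side by side on chromosome arm 2L, with 1 long noncoding RNA gene between them. Of the 11 genes that lie between them or are the nearest 5 on either side, 3 were measured. In Ato LOF *CG14926*, beyond *salr*, rose by 0.31 (adjusted p = 0.0258 from limma) at a mean log2 level of 4.22, which is under the array medians of 5.38 to 5.51. In the same comparison *Cog8*, a subunit of the Golgi COG complex, and *spz4*, a Spätzle-like ligand gene, both beyond *salm*, had changes of 0.02 (adjusted p = 0.925) and -0.09 (adjusted p = 0.643). In Sens GOF *Cog8* rose by 0.42 (adjusted p = 0.0178), a call lost with arrays 1 and 2 as 1 array (0.41, adjusted p = 0.0900), and the changes of *CG14926* (0.17) and *spz4* (-0.20) did not pass.

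The genes whose levels were most like those of a member over the 20 arrays were chosen by Pearson r over 11981 other genes. For *salm* they were *eya*, a cofactor of the retinal determination TF So (r = 0.967), *retn*, an ARID-domain TF gene (r = 0.964), *hbs*, an immunoglobulin-domain adhesion protein gene (r = 0.963), *rau* (r = 0.959) and *E(spl)mdelta-HLH* (r = 0.959). *eya* fell by 1.42 in Ato LOF, close to *salm*, whereas *retn* fell by 3.00 and *rau* fell by 2.73. In Sens GOF their changes lay between -0.33 and -0.10. Since they were chosen by likeness over these arrays, their low level in Ato LOF follows from the choice.

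For *salr* the most alike genes were *Delta* (r = 0.954), *seq*, a zinc-finger TF gene (r = 0.943), *Arglu1* (r = 0.941), *CadN*, the neural cadherin (r = 0.940), and *CG8176* (r = 0.938). They were likewise chosen on these arrays, so that low levels in Ato LOF and Sens GOF follow from the choice and are given as a description. The log2 changes in Ato LOF and in Sens GOF were -1.17 and -0.77 for *Delta*, -1.46 and -0.73 for *CadN*, and -1.19 and -0.53 for *seq*. On the Sens GOF arrays *Delta* measured 10.55, 10.35 and 10.66, all under the lowest control at 11.00. *salr* itself ranked 168 in likeness to *salm*, and *salm* ranked 131 in likeness to *salr*.

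**Figure D5:**
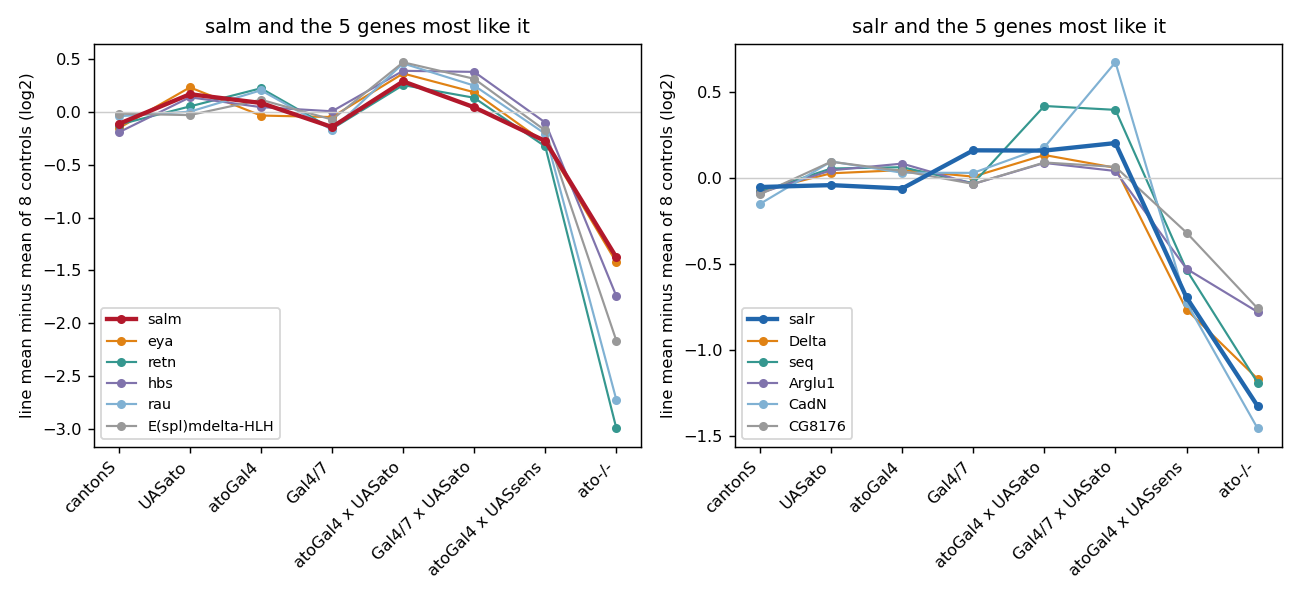
Mean log2 level of each line minus the mean of the 8 control arrays, for *salm* (left, thick red) and *salr* (right, thick blue) and for the 5 genes most like each by Pearson r over 20 arrays. Lines join the points of a gene across the lines, which have no order in time or dose. In atoGal4 x UASsens the 5 genes like *salm* lie between -0.33 and -0.10 and those like *salr* between -0.77 and -0.32, with *retn* of the first set and *CG8176* of the second at about the same place.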

How the data were processed

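The deposited values are on the log2 scale and come from RMA as run by the authors, with background correction, quantile normalization between arrays and a summary per probe set. The version of RMA and the gene models are not given in the sources used here. All 20 columns matched a labelled sample, so 0 columns were left unused. Array medians lay between 5.38 and 5.51, and the number of arrays limits the precision. The table holds 18952 probe sets, of which 183 control probe sets of the manufacturer were dropped, leaving 18769. The platform annotation gives 1 gene for 13647 of them, more than 1 for 402, and none for 4720.

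Each comparison was fitted on its own arrays, without covariates, with limma 3.58.1 (lmFit, eBayes) under R 4.3.3, and p-values were adjusted over all 18769 probe sets by the Benjamini-Hochberg method. A probe set was called at an adjusted p under 0.05. Single values were also tested by two-sided exact permutation tests over arrays. The study describes the arrays of a line as biological or independent repeats. The p-values measure the spread between arrays of a group, and in a group of several lines this includes differences between its lines.

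Where several probe sets named a gene, the brightest by mean level was used. Genes named are *salm* and *salr*, members of the 9 lists, the 5 genes most like each member and the measured neighbours of the locus. The members and lists were chosen with earlier results of these data known. List genes that no probe set names alone, *sca*, *run*, *fz*, *dsh*, *pk*, *nmo*, *brk*, *hth*, *exd* and the rhodopsin genes among them, were not analysed here. The list symbol Dl was read as *Delta*, the name in the reference table. The fits were tested on simulated data. Python 3.11.15, pandas 2.3.3, numpy 2.4.6 and matplotlib 3.10.9 were used for summaries and plots.

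The alternatives tried were a filter on dim probe sets, quantile normalization applied again, eBayes with trend and robust variances, all 20 arrays in 1 fit, array weights, a replicate block, a random block by line, nearest controls only, fold limits, the exact test, and leaving out each array. Counting Sens GOF arrays 1 and 2 as 1, for the members and the other genes named, was added after the values had been seen.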

Additional observations from a re-analysis of the deposited data

How the results depend on the processing

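Over 328 alternative values of the 18 results for *salm* and *salr*, 304 stayed on their side of the threshold, 24 crossed it, and no called change reversed. A fold limit can only remove calls, so the 304 include uncalled results that it could not have changed. In Ato LOF both calls were lost only where a change of over 3-fold was required (-1.38 and -1.33). In Sens GOF against controls the *salr* call was lost with the 2 atoGal4 arrays as controls (-0.63), with a limit of 2-fold (-0.70), and with arrays 1 and 2 as 1 array (-0.61), and without single arrays its change ran from -0.86 to -0.61. By the unadjusted exact test *salm* passed in Sens GOF (-0.28) and in atoGal4 x UASato against controls (0.29). In Sens GOF against atoGal4 x UASato, *salm* passed with the filter on dim probe sets, with trend and robust variances and with all 20 arrays in 1 fit (-0.57 each), with quantile normalization again (-0.52) and with array weights (-0.46), and without single arrays it ran from -0.62 to -0.46. There the *salr* call was lost with quantile normalization again (-0.88), with arrays 1 and 2 as 1 array (-0.77) and with the replicate block (-0.85, adjusted p = 0.0552 from limma), and without single arrays it ran from -1.01 to -0.76. In Ato LOF against Sens GOF *salr* passed with all 20 arrays in 1 fit (-0.63). The cause of these shifts was not tested. Over all lines the replicate numbers gave no even pairing of the arrays. Deviations of same-numbered arrays correlated at a median of 0.0845 over 62 pairs, from -0.479 to 0.584. Among the control lines (0.032 to 0.359) and between them and Gal4/7 x UASato (0.134 to 0.584) all such correlations were above 0. In 5 of the 6 control and Ato GOF lines both genes were lower on array 1 than on array 2. Whether the numbers pair the arrays of these lines was not tested. The replicate block changed no other call and gave 0.11 for each gene in Ato GOF. Under some alternatives the uncalled *salm* differences for Gal4/7 x UASato and between the drivers changed sign. Each gene rests on 1 probe set, so no other probe set could be tried.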
